A study of Mus musculus with 6 samples.

Results

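The cytosolic ribosomal protein genes were measured in mouse dorsal root ganglion (DRG) neurons, cultured with HC-HA/PTX3 or its vehicle. Members were found by symbol (Rpl, Rplp, Rps and Rpsa genes, without pseudogenes marked -ps and without the Rps6k kinases). A member also needed at least 10 raw counts in 3 or more cultures. Of 35976 listed genes, 86 symbols matched and 84 met the count minimum, 51 of the large and 33 of the small subunit. All 84 also passed the low-count filter of the test. The 2 symbols left out were Rpl10l, with 0 counts in all 6 cultures, and Rpl3l, with 1, 6 and 8 counts in vehicle cultures 1, 2 and 3 and 4, 6 and 2 counts in the HC-HA/PTX3 cultures of the same numbers. Just inside the minimum lay Rpl39l, with 20, 5 and 12 counts in the vehicle and 16, 12 and 7 counts in the HC-HA/PTX3 cultures.

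DRG neurons are the sensory neurons of the body, and these were taken from lumbar ganglia of adult C57BL/6 mice of both sexes. The cultures grew for 24 h with serum and growth factors and were then exposed for another 24 h to vehicle (3 cultures) or to 15 µg/mL of HC-HA/PTX3 (3 cultures), a complex of hyaluronic acid, heavy chains and pentraxin 3 purified from human amniotic membrane. A question of the study, and the only one these 6 cultures address, was whether 24 h of exposure changes gene expression in these neurons. Total counts were 42516054, 42617496 and 54117547 in vehicle cultures 1, 2 and 3 and 37998071, 37434266 and 38420247 in HC-HA/PTX3 cultures 1, 2 and 3. Levels are given in CPM, counts per 1000000 after TMM scaling in edgeR, and 1 CPM stood for 37.1 to 56.0 counts. For a gene with no count, such as Rpl10l, a level of up to 0.0808 CPM could not be detected in HC-HA/PTX3 culture 1 (3 counts, counting error only). That culture had the fewest counts per CPM after scaling.

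Ribosomal proteins assemble with ribosomal RNA into the large subunit, which joins amino acids, and the small subunit, which reads the mRNA. Most are made in fixed proportion, and their mRNAs begin with a pyrimidine tract (the terminal oligopyrimidine or TOP motif) through which mTOR signalling and the protein LARP1 control their translation. In neurons these mRNAs are also found in axons. The library kit removed ribosomal RNA and kept mRNAs, so the counts describe the messages of ribosomal proteins and not the ribosomes themselves. Ribosomal protein genes have many processed pseudogenes, and the treatment of reads with several matches is not given in the sources used here. Counts of every member are uncertain to that extent.

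The members were abundant messages in both groups. Scaled to the length of the annotated coding sequence, which 82 of the 84 have, 78 were among the 1455 highest of 14559 tested genes with a coding length. The median was 299 CPM per kilobase for 50 large subunit genes and 263 for 32 small subunit genes, against 16.3 over the 14559 genes. Rpl41, a very short large subunit protein, had the highest value at 2241 CPM per kilobase, and its coding sequence of 75 bases inflates it. Per kilobase of the whole mRNA, a scale chosen after seeing the data, Rpl41 was at 385 and the stalk protein gene Rplp1 led the large subunit at 431. By coding length, Rpl23, Rplp1, Rpl12 and Rpl35 followed Rpl41 with 645, 629, 626 and 625 CPM per kilobase, too close to be ordered beyond their replicate spread. In the small subunit, Rps24 was at 907, Rpsa at 736, Rps26 at 727, Rps2 at 565 and Rps29 at 560 CPM per kilobase. The lowest small subunit genes by coding length were Rps14 at 149, Rps13 at 172 and Rps27 at 195. The order depends on the scale. Per kilobase of the whole mRNA, Rps2 led the small subunit at 498, with Rpsa at 407, Rps26 at 368, Rps29 at 241 and Rps24 at 224. Rpl23, Rpl12 and Rpl35 were at 256, 250 and 244 by mRNA length.

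Rpsa, which encodes a small subunit protein first described as a laminin receptor, was at 598, 713 and 576 CPM in vehicle cultures 1, 2 and 3 and at 653, 827 and 539 CPM in the HC-HA/PTX3 cultures 1, 2 and 3 (chr9:120127689-120132369 of mm10). The groups overlapped, and the number 2 culture was the highest of each group. Rplp0, the stalk protein that holds the P1 and P2 proteins on the large subunit, was at 348, 484 and 407 CPM in the vehicle and 441, 464 and 322 CPM in the treated cultures. The 84 members lay on 19 chromosomes, with 14 of them on chromosome 7. Rplp1, a partner of Rplp0, was at 171, 248 and 217 CPM in the vehicle and 213, 265 and 178 CPM in the treated cultures. The vehicle culture 1 and the HC-HA/PTX3 culture 3 were the lowest of their groups for both stalk genes.

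Several members are paralogs of another member, and they differed far more in level than the parents did. Rpl39l, a paralog of Rpl39 known from the male germ line, stood at 1.91 CPM per kilobase of coding length, 0.704% of its parent at 272. Rpl22l1 reached 12.3% of Rpl22 (25.4 against 207 CPM per kilobase) and Rpl7l1, whose product is a ribosome assembly factor, 20.5% of Rpl7 (60.0 against 293). Rpl36al reached 62.6% of Rpl36a (101 against 162). Rps27l, known as a target of p53, was level with its parent Rps27, at 202 against 195 CPM per kilobase. By CPM, the Rps27l share of Rps27 ran from 88.1% in HC-HA/PTX3 culture 2 to 117% in HC-HA/PTX3 culture 3, so neither gene was higher in all cultures. Rps4l and Rpl32l are listed as pseudogenes in the GENCODE M21 annotation and have no coding length there. Rps4l had 8.12% to 15.3% of the CPM of its parent Rps4x in the 6 cultures. None of these paralogs was called in either fit described below, and their sequences resemble those of their parents, so reads could have been split between them.

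**Figure D1:**
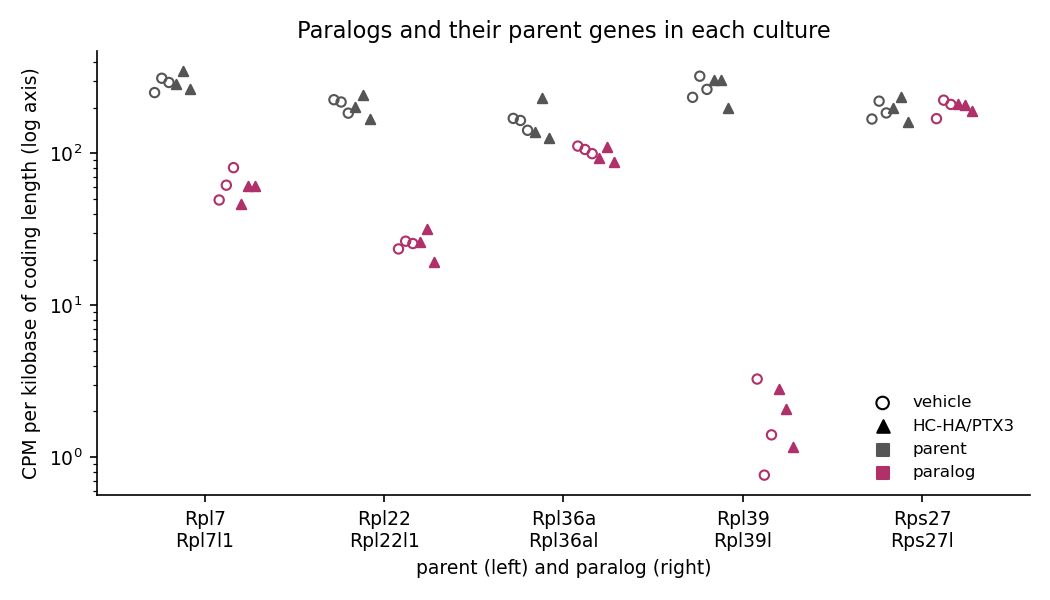
Levels of 5 paralogs (magenta) and their parents (grey) in each culture, in CPM per kilobase of coding length on a log axis, with open circles for vehicle and filled triangles for HC-HA/PTX3. Rps27l overlaps with Rps27, while Rpl39l lies at 0.704% of Rpl39.

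Summed over the 84 members, ribosomal protein messages took 1.16%, 1.48% and 1.40% of all gene counts in vehicle cultures 1, 2 and 3, and 1.28%, 1.66% and 1.23% in HC-HA/PTX3 cultures 1, 2 and 3. The means were 1.34% ± 0.168 with vehicle and 1.39% ± 0.236 with HC-HA/PTX3 (SD, n = 3 each), a difference smaller than the spread in either group. The treated culture held the higher share in pairs 1 and 2 (1.11 and 1.12 times the vehicle culture of the same number) and the lower in pair 3 (0.880 times). The large subunit took 0.823% ± 0.0899 with vehicle and 0.848% ± 0.138 with HC-HA/PTX3, and the small subunit 0.521% ± 0.0782 and 0.544% ± 0.0977 (SD, n = 3 each). The ratio of large to small subunit counts was 1.66, 1.52 and 1.57 in the vehicle and 1.55, 1.54 and 1.60 in the HC-HA/PTX3 cultures. Vehicle culture 1 had the highest ratio and the smallest share of raw counts, but on the TMM scale its members summed to 1.23% against 1.20% in HC-HA/PTX3 culture 3, the smallest. In bulk RNA, fewer cells with abundant ribosomal protein mRNA and less of it per cell cannot be told apart.

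The members tended to lie on the same side of their group means within a culture. Deviations were taken as log2 CPM minus the mean of the group. In HC-HA/PTX3 culture 2, 83 of the 84 members lay above the group mean, with a median deviation of 0.27. In HC-HA/PTX3 culture 3, 80 lay below it, with a median of -0.19. Vehicle culture 1 had a median of -0.17 with 69 members below the mean, and vehicle culture 2 a median of 0.13 with 78 above. Vehicle culture 3 and HC-HA/PTX3 culture 1 were closer to their group means, at 0.025 and -0.068. The scaling holds the median over all 18277 tested genes near 0, and it stayed between -0.0066 and 0.019. The leading component of the deviations took 64.9% of their sum of squares over the members (57.8% large, 77.2% small subunit) and 64.6% over all tested genes. With at least 50 CPM, it took 74.7% over 76 members and 78.2% over tested genes. Over the 44 ribosome biogenesis genes it took 88.7%, so other genes also moved together by culture.

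Both subunits took part in this shift. The large and small subunit medians were 0.26 and 0.27 in HC-HA/PTX3 culture 2 and -0.18 and -0.20 in HC-HA/PTX3 culture 3. They differed most in vehicle culture 1, at -0.15 for the large and -0.22 for the small subunit, where 13 large but 2 small subunit genes lay above the group mean. Members with a GC content over the median of 51.4% stood at -0.22 in this culture and the others at -0.10, a division chosen after seeing the data. All other tested genes divided at the same GC content stood at -0.041 and 0.051 there, in the same order. In HC-HA/PTX3 culture 2 the members' medians were 0.27 and 0.28. Other tested genes with a coding length of at most 600 bases (1774 genes, also chosen after seeing the data) had medians of 0.034 in vehicle culture 1, 0.035 in HC-HA/PTX3 culture 2 and -0.038 in HC-HA/PTX3 culture 3.

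**Figure D2:**
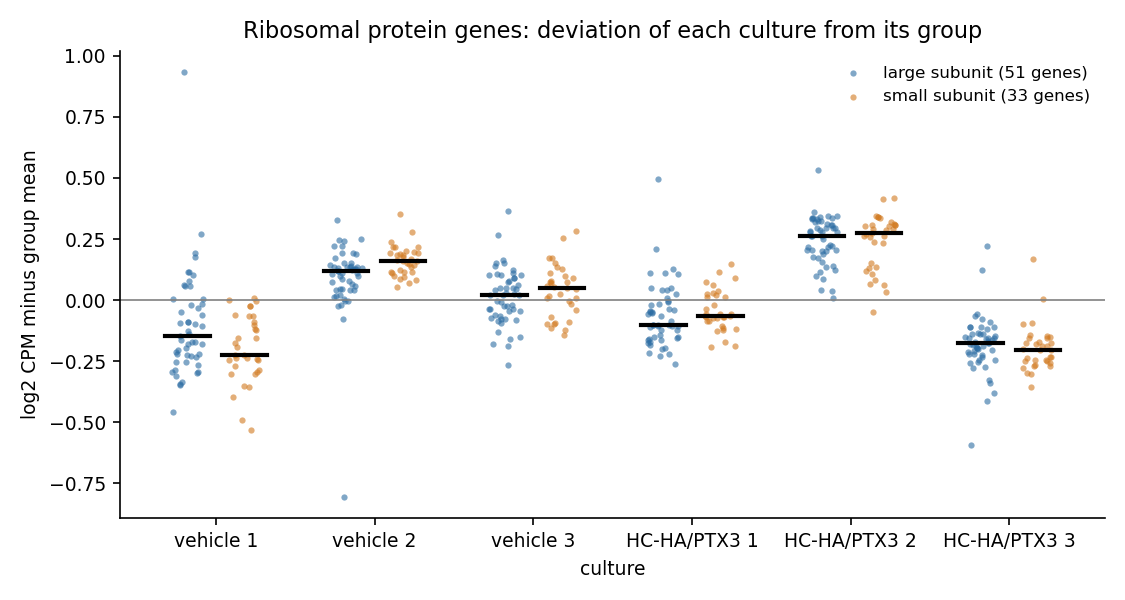
Deviation of each member from its group mean in log2 CPM, by culture, for the large (blue) and small (orange) subunit, with black bars for medians. In HC-HA/PTX3 culture 2 the medians are 0.26 and 0.27, and in HC-HA/PTX3 culture 3 they are -0.18 and -0.20.

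Per gene, the SD of log2 CPM between the cultures of a group, pooled over both groups, had a median of 0.219 over the members. It was 0.215 for the large and 0.227 for the small subunit, against 0.244 over all tested genes and 0.151 over the 4725 tested genes with a mean of at least 50 CPM. Of the 84 members, 80 lay above that last median. The counting error alone would give a median SD of 0.0191 for the members. For the sparse Rpl39l it came to 0.465 beside an observed SD of 0.732, and for Rpl32l to 0.268 beside 0.192. After the median deviation of the members was subtracted from each culture, their median SD was 0.113. That median comes from the same genes, so part of the reduction is built in. The median SD of the members ran from 0.164 without HC-HA/PTX3 culture 2 to 0.244 without vehicle culture 3, and that of the abundant genes from 0.144 to 0.156. Without HC-HA/PTX3 culture 2 the large subunit median was 0.144, level with the 0.144 of the abundant genes in that setting, and the small subunit median was 0.185.

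Among members with a mean of at least 1 CPM, the SD ran from 0.125 for Rpl29 to 0.349 for Rps14. Rps14, of the small subunit platform, was at 41.8, 73.6 and 72.3 CPM in the vehicle and 76.6, 77.4 and 62.6 CPM in the treated cultures, with vehicle culture 1 far below the rest. Rps19, a small subunit gene mutated in Diamond-Blackfan anemia, had the same low vehicle culture 1 (64.6, 116 and 99.7 CPM in the vehicle, 101, 122 and 89.8 CPM in the treated cultures). Rpl36a varied instead through a high HC-HA/PTX3 culture 2, with 54.0, 52.4 and 45.1 CPM in the vehicle and 44.1, 73.1 and 39.9 CPM in the treated cultures. Rpl29, Rpl36al and Rpl17 had the smallest SDs, at 0.125, 0.133 and 0.134. Rpl29 was at 191, 223 and 213 CPM in the vehicle and 215, 204 and 179.7 CPM in the treated cultures.

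**Figure D3:**
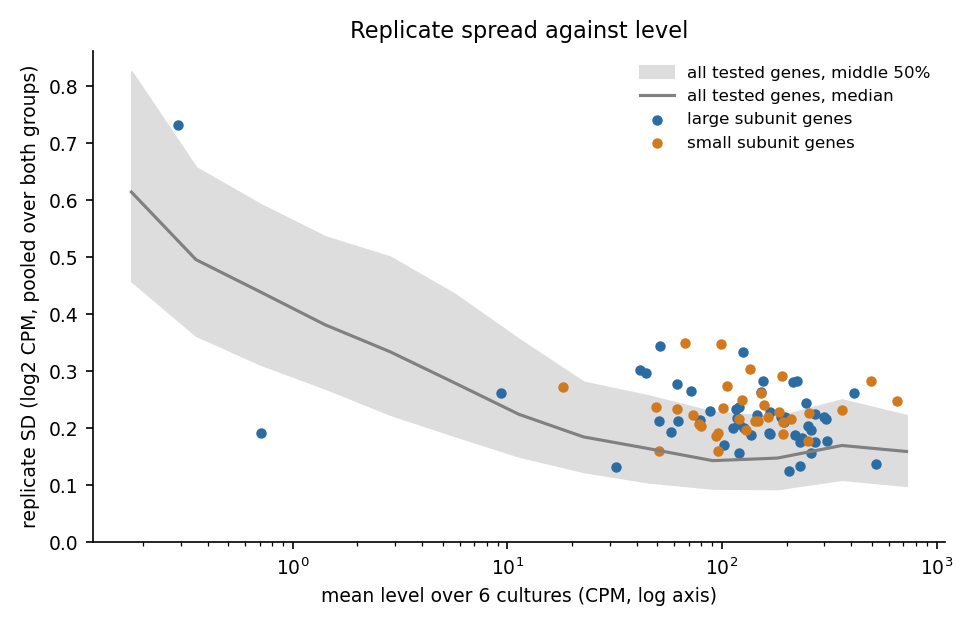
Replicate SD of log2 CPM against the mean level in CPM (log axis) for the large (blue) and small (orange) subunit genes, over the median (line) and middle 50% (band) of all tested genes. Of the 84 members, 80 lie above 0.151, the median of the tested genes with at least 50 CPM.

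No member was called differentially expressed between HC-HA/PTX3 and vehicle. Genes were called at a log2 fold change beyond 0.5 in either direction, if edgeR's quasi-likelihood test over all 18277 tested genes also gave them an adjusted p-value (Benjamini-Hochberg) below 0.05. With the treatment as the only term the count was 0 of 84 (background 0% of tested genes), and 0 of the 84 had an unadjusted p-value under 0.05, against 11.4% of tested genes. With the replicate number as a block, 0 of 84 were called higher (background 3.32%) and 0 lower (background 5.38%). Among tested genes with at least 50 CPM, a class that holds 76 of the members, 0.698% were called higher and 2.24% lower. With the block, 6 of 84 had an unadjusted p-value under 0.05 (33.2% of tested genes). DESeq2 with and without the block, limma-voom, and ComBat-seq followed by limma also called 0 members. The median log2 fold change was 0.021 for the large and 0.045 for the small subunit without the block, and 0.0084 and 0.029 with it, against -0.0072 and -0.0067 over all tested genes. These signs turn when single cultures are left out: the median over all members, 0.030 without the block, was -0.035 without vehicle culture 1 and -0.12 without HC-HA/PTX3 culture 2. With the block, 30 of 51 large and 21 of 33 small subunit genes were on the higher side, against 8929 of the 18277 tested genes.

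Most members had intervals between -0.5 and 0.5, through small differences more than through narrow intervals. With the block, the median SE was 0.0861 over the members, 0.111 over all tested genes and 0.0670 over those with at least 50 CPM. The median absolute log2 fold change was 0.0657 over the members and 0.118 over tested genes with at least 50 CPM. The 95% interval of the log2 fold change in the blocked fit lay wholly between -0.5 and 0.5 for 81 of the 84 members (96.4%), against 52.1% of all tested genes and 90.8% of the 4725 with at least 50 CPM. The 3 with wider intervals were Rps14 (-0.11 to 0.59) and the sparse Rpl39l (-0.78 to 1.17) and Rpl32l (-0.49 to 0.75). Without the block, 54 members (64.3%) had such an interval, against 29.9% of tested genes and 63.3% of those with at least 50 CPM. The intervals are for single genes and not adjusted for their number.

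The direction of the members changed from pair to pair. For the members the pairing itself was weak: deviations of same-numbered cultures correlated at 0.157, 0.0140 and 0.486 over them. The members also shifted together by culture, so they are not separate observations. The median log2 difference between same-numbered cultures was 0.12 in pair 1 and 0.16 in pair 2, with 58 and 64 of 84 members higher after HC-HA/PTX3, but -0.19 in pair 3, with 7 of 84 higher. Of the 18277 tested genes, 8973, 8446 and 9114 were higher in pairs 1, 2 and 3. In the small subunit 26, 24 and 1 of 33 genes were higher in pairs 1, 2 and 3, and in the large subunit 32, 40 and 6 of 51. Of the 84 members, 6 moved one way in all 3 pairs (7.14%), against 53.9% of all tested genes. Rpl13a, Rplp2, Rpl28 and Rps6 were higher in every pair. The groups did not overlap for 1 member, Rpl13a, against 18% of tested genes.

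**Figure D4:**
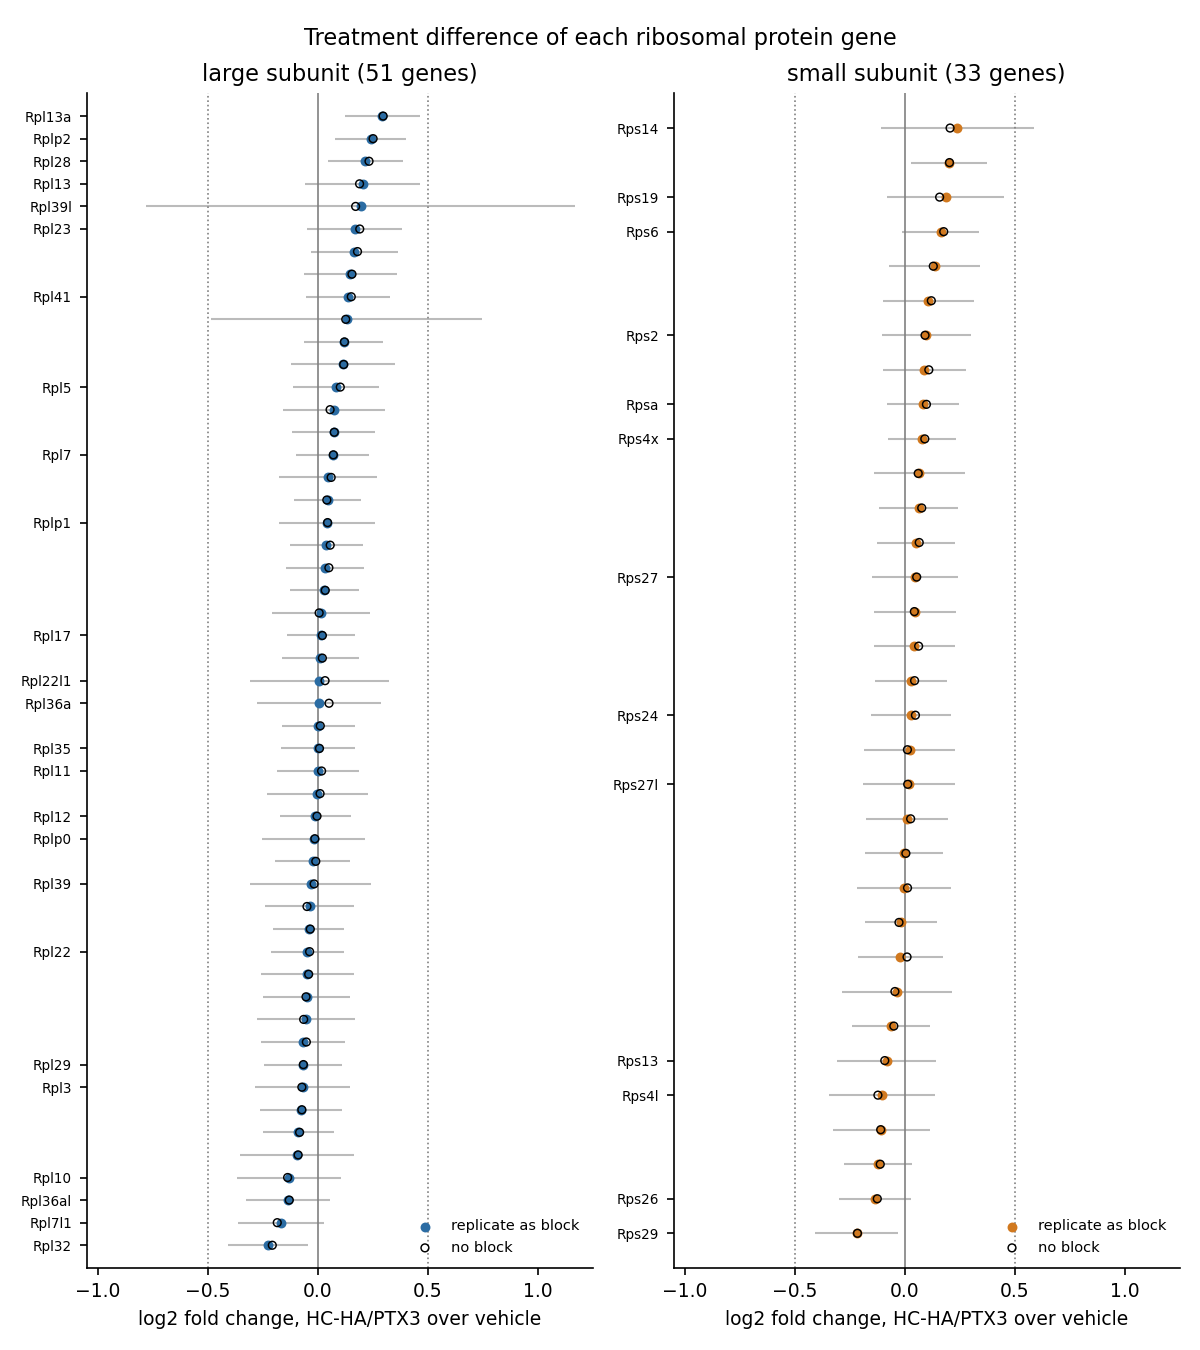
Log2 fold change of HC-HA/PTX3 over vehicle for the 51 large and 33 small subunit genes, with the replicate number as a block (filled points, bars are 95% intervals) and without it (open points); genes chosen for naming in the text are labelled. Dotted lines mark -0.5 and 0.5, and 81 of the 84 intervals lie between them.

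Rpl13a, a large subunit protein that also acts in silencing of inflammatory mRNAs, showed the largest positive difference (chr7:45125558-45128761). It was at 201, 252 and 243 CPM in vehicle cultures 1, 2 and 3 and at 264, 337 and 255 CPM in the HC-HA/PTX3 cultures. All treated cultures lay above all vehicle cultures, the closest by 255 against 252 CPM. The means were 232 ± 27.0 and 285 ± 44.7 CPM (SD, n = 3 each). Higher in 3 of 3 pairs, it had log2 fold changes of 0.30 (SE 0.15, adjusted p = 0.495 in edgeR without the block) and 0.29 (SE 0.077, adjusted p = 0.0247 in edgeR with the block), under the fold threshold in both. Rplp2, a P stalk protein that recruits elongation factors (chr7:141447370-141451585), was at 118, 161 and 138 CPM in the vehicle and 147, 207 and 142 CPM in the treated cultures. The groups overlapped, although each pair was higher after treatment. In edgeR with the block Rplp2 had a log2 fold change of 0.24 (SE 0.073, higher in 3 of 3 pairs) and an adjusted p of 0.0426, against 0.662 without the block. In the fit without the block, Rpl13a was at 0.15 without HC-HA/PTX3 culture 2, and Rplp2 (0.25) was at 0.051 without HC-HA/PTX3 culture 2 (adjusted p = 0.921 in edgeR) and at 0.15 without vehicle culture 1.

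These were the only 2 members with an adjusted p-value under 0.05 in the edgeR fit with the block and TMM scaling, where 7.67% of tested genes were higher and 11.5% lower at that limit. Rplp2 was over the limit with the block and RLE scaling in edgeR (log2 fold change 0.24, adjusted p = 0.0506) and in DESeq2 with the block (0.24, adjusted p = 0.0561). Those fits gave 1 member higher, Rpl13a, and 0 lower, against 7.35% and 11.3% of tested genes with RLE scaling and 6.6% and 12% in DESeq2. In DESeq2 with the block, 2 of the 84 members had no adjusted p-value, and the shares are of the 14733 genes that had one. The blocked fit with raw library sizes gave the same 2 members higher and 0 lower, against 7.94% and 10% of tested genes. ComBat-seq followed by limma gave 4 of 84 members higher, Rpl13a, Rplp2, Rpl28 and Rps3 (named after its value was seen), and 0 lower, where 19.7% of tested genes were higher and 21.1% lower. Without pair 3 the blocked fit gave 11 of 84 members higher (background 4.9%) and 0 lower (7.09%). Without pair 1 it gave 0 higher (3.05%) and 2 of 83 lower (5.15%), Rps29 and Rpl10 (named after its value was seen). Without pair 2 it gave 0 higher (4.48%) and 1 of 84 lower (7.3%), Rpl32. In edgeR with the block, Rpl13a had log2 fold changes of 0.25, 0.23 and 0.42 without pairs 1, 2 and 3, with adjusted p-values of 0.118, 0.184 and 0.00212, and was higher in each remaining pair. Rplp2 had 0.21, 0.18 and 0.35, with adjusted p-values of 0.167, 0.259 and 0.00952 in edgeR, higher in each remaining pair. Over all alternatives the adjusted p of Rpl13a ran from 0.00212 to 0.774.

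The next differences on the higher side were those of Rps14, Rpl28 and Rpl13. Rpl28 (chr7:4792874-4795066) was at 162, 186 and 169.8 CPM in the vehicle and 171, 252 and 185 CPM in the treated cultures. Its difference in edgeR with the block was 0.22 on the log2 scale (SE 0.077, adjusted p = 0.0756, higher in 3 of 3 pairs). Its groups overlapped, and HC-HA/PTX3 culture 2 stood apart from the other treated cultures. Without that culture the fit without the block gave 0.041 in place of 0.23, and the blocked fit without pair 2 gave 0.10. Rpl13 was at 112, 179 and 144 CPM in the vehicle and 177, 181 and 138 CPM in the treated cultures, a blocked log2 fold change of 0.20 (SE 0.12). For Rps14 the blocked value was 0.24 (SE 0.16). Without pair 1, which holds the low vehicle culture 1, the blocked values were -0.019 for Rpl13 and -0.065 for Rps14. Without pair 3 they were 0.35 and 0.48, and both genes were among the 11 members with an adjusted p-value under 0.05 in edgeR there. In the fit without the block, Rpl13 (0.19) was at 0.033 without vehicle culture 1, 0.36 without vehicle culture 2, 0.11 without HC-HA/PTX3 culture 2 and 0.30 without HC-HA/PTX3 culture 3. Rps14 (0.21) was at -0.019, 0.34 and 0.32 without vehicle cultures 1, 2 and 3.

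On the lower side stood Rpl32, Rps29, Rpl7l1, Rps26 and Rpl36al. Rpl32, a large subunit gene often used as a reference in expression assays (chr6:115805505-115808747), was at 126, 132 and 119 CPM in the vehicle and 99.9, 136 and 91.3 CPM in the treated cultures. It was lower in pairs 1 and 3 but not in pair 2, and its log2 difference in edgeR with the block was -0.23 (SE 0.083, adjusted p = 0.0834, lower in 2 of 3 pairs). Rps29, a zinc-binding small subunit protein (chr12:69157722-69159186), was at 92.3, 115 and 95.8 CPM in the vehicle and 95.8, 91.6 and 73.6 CPM in the treated cultures. Its groups overlapped, and its log2 difference in edgeR with the block was -0.22 (SE 0.085, adjusted p = 0.101, lower in 2 of 3 pairs). Rpl7l1 was at 36.4, 45.6 and 59.4 CPM in the vehicle and 34.4, 45.3 and 44.9 CPM in the treated cultures and had a blocked log2 fold change of -0.17 (SE 0.088). The pairs differed by -0.082, -0.0091 and -0.41. Rps26 and Rpl36al followed at -0.14 and -0.13 in the blocked fit, and neither had an adjusted p-value under 0.05. Single cultures moved all of these values. In the fit without the block, Rpl32 (-0.21) was at -0.40 without HC-HA/PTX3 culture 2 and -0.092 without HC-HA/PTX3 culture 3, and Rps29 (-0.21) at -0.12 without vehicle culture 2 and -0.11 without HC-HA/PTX3 culture 3. Rpl7l1 (-0.18) was at -0.35 without vehicle culture 1, 0.015 without vehicle culture 3 and -0.061 without HC-HA/PTX3 culture 1. Rps26 (-0.12) was at -0.28 without HC-HA/PTX3 culture 2, -0.057 without HC-HA/PTX3 culture 1 and -0.046 without HC-HA/PTX3 culture 3. Rpl36al (-0.13) was at -0.24 without HC-HA/PTX3 culture 2 and -0.062 without HC-HA/PTX3 culture 3.

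Some members have roles in signalling besides the ribosome. Rps6, the small subunit protein phosphorylated downstream of mTOR, was at 169, 188 and 187 CPM in the vehicle and 178, 248 and 190.2 CPM in the treated cultures. Its log2 difference in edgeR with the block was 0.16 (SE 0.079, adjusted p = 0.175, higher in 3 of 3 pairs). Rpl5 and Rpl11, which bind MDM2 when ribosome assembly is disturbed, had blocked log2 fold changes of 0.083 and 0.0012, with intervals of -0.11 to 0.28 and -0.18 to 0.19. Rpl11 was at 163, 170 and 162 CPM in the vehicle and 146, 205 and 149.9 CPM in the treated cultures. The vehicle cultures were nearly equal, and the treated ones spread around them.

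Sequences at the annotated start sites were searched for pyrimidine runs. RefSeq promoters (build GRCm38.p6, 250 bases before to 50 bases after each start) matched 63 of the 84 members, and the first entry of a gene was used. Of the members described above, Rpl7, Rpl17, Rpl29, Rpl32, Rplp1, Rps4l, Rps14 and Rps29 had no entry. A run of at least 8 pyrimidines within 20 bases of the start was found in 29 of the 63 (46%), 18 of 39 large and 11 of 24 small subunit genes, against 15.9% of all 27025 genes in the table and 17.4% of 69 mitochondrial ribosomal protein genes. The motif CTTCCG, searched on both strands of the 300 bases, was in 68.3% of members, 55.1% of mitochondrial ribosomal protein genes and 17.2% of all genes. The motif TATAAA was in 11.1% of members and 14.2% of all genes. A pyrimidine run can overlap the first 5 bases of CTTCCG.

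The 40 bases around the start, 20 before it and 20 from it, are printed for those of the 5 largest differences in each direction that had an entry, and for paralogs beside their parents where both had one. Capitals mark the longest pyrimidine run, or the first of equally long ones, as in Rpl39, Rpl22 and Rpl36al.
Rpl13a, chr7:45128726-45128765, minus strand: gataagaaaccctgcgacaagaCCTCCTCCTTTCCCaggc
Rplp2, chr7:141447631-141447670, plus strand: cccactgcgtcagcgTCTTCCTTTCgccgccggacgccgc
Rpl28, chr7:4792945-4792984, plus strand: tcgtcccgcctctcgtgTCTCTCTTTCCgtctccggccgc
Rpl13, chr8:123102330-123102369, plus strand: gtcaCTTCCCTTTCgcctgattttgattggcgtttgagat
Rps26, chr10:128626487-128626526, minus strand: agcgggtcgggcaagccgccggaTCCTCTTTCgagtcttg
Rpl7l1, chr17:46782637-46782676, minus strand: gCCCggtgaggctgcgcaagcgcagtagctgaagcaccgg
Rpl36al, chr12:69184048-69184087, minus strand: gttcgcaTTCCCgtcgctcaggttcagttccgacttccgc
Rpl36a, chrX:134585634-134585673, plus strand: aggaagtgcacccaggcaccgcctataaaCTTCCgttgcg
Rpl22, chr4:152325706-152325745, plus strand: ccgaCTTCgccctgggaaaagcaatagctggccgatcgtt
Rpl22l1, chr3:28805488-28805527, plus strand: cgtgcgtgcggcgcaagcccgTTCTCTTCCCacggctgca
Rpl39, chrX:37085203-37085242, minus strand: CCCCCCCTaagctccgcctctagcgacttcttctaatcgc
Rpl39l, chr16:10170208-10170247, plus strand: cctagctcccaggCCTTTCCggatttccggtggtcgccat
Rps27, chr3:90213629-90213668, minus strand: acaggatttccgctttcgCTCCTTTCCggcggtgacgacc
Rps27l, chr9:66946066-66946105, plus strand: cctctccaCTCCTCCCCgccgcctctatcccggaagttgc
Runs of 14, 10, 11 and 10 pyrimidines stand near the starts of Rpl13a, Rplp2, Rpl28 and Rpl13, on the higher side. Rps26, on the lower side, has a run of 9, while Rpl7l1 and Rpl36al have 3 and 5. These genes were picked by their differences, and Rps14, Rpl32 and Rps29 had no entry. Other members went the other way. Rpl27a (named after its value was seen), with a run of 20, had a blocked log2 fold change of -0.041. Rpl23, with a run of 3, was at 0.17. Run length was not tested against direction. Among the paralogs, Rpl22l1 has a run of 10 and its parent Rpl22 one of 4, Rpl39l one of 7 and Rpl39 one of 8, and Rps27l and Rps27 both have runs of 9. A match describes these letters only.

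Genes that work with the ribosomal proteins were compared by lists. Rack1, a small subunit protein whose symbol is outside the rule, was not called and was at 135, 194 and 177 CPM in the vehicle and 162, 193 and 146 CPM in the treated cultures. Rack1 was lowest in the same culture of each group as the stalk genes above. Of 18 other mRNAs known to carry a TOP motif, led by Eef1a1, 0 were called and the median log2 fold change with the block was -0.026. Their median deviation was -0.13 in vehicle culture 1, 0.11 in HC-HA/PTX3 culture 2 and -0.069 in HC-HA/PTX3 culture 3, where the members were at -0.17, 0.27 and -0.19. In vehicle culture 3 and HC-HA/PTX3 culture 1 they were at 0.055 and -0.11, and the members at 0.025 and -0.068. Of 37 translation factors, also led by Eef1a1, 0 were called, with a median of -0.051. Of 44 ribosome biogenesis genes, led by Ncl, 0 were called and the median was -0.014. Their deviations were -0.27 in vehicle culture 1 and 0.27 in vehicle culture 3, and in HC-HA/PTX3 culture 3 they stood at 0.15, where the ribosomal proteins were at -0.19. Of 77 mitochondrial ribosomal protein genes, led by Mrpl12, 2 (Mrps2 and Mrps18c) were called lower with the block, where 5.38% of all tested genes were, and the median was -0.024.

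**Figure D5:**
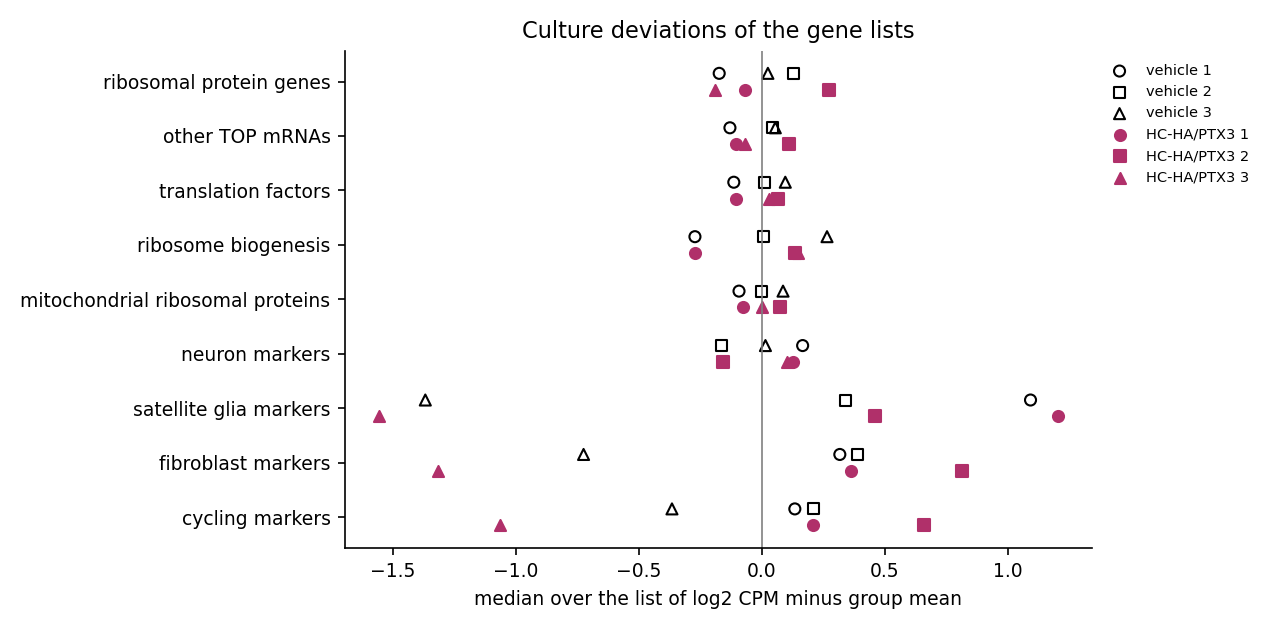
Median over each gene list of log2 CPM minus the group mean, by culture (open symbols vehicle, filled symbols HC-HA/PTX3; circles, squares and triangles for cultures 1, 2 and 3). The ribosomal protein genes reach 0.27 in HC-HA/PTX3 culture 2 and -0.19 in HC-HA/PTX3 culture 3, while the satellite glia markers run from -1.56 to 1.20.

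Cell type markers moved between cultures as well. The 12 neuron markers, led by Nefl, summed to 11860, 9165 and 10267 CPM in vehicle cultures 1, 2 and 3 and to 12205, 9742 and 11731 CPM in HC-HA/PTX3 cultures 1, 2 and 3, with 0 called. Their sum was lowest in the number 2 cultures, where the ribosomal protein share was highest. The median deviation of the 12 markers was also lowest there, at -0.16 in both. Single markers differed: Tubb3, Prph, Scn10a and Calca were each lowest in another culture of both groups. The 9 satellite glia markers, led by Apoe, summed to 2368, 1359 and 651 CPM in the vehicle and 2259, 1390 and 680.2 CPM in the treated cultures, with 0 called. Vehicle culture 1 and HC-HA/PTX3 culture 1 were the highest for glia and below their group means for ribosomal proteins, while HC-HA/PTX3 culture 3 was low for both and vehicle culture 3 was low for glia only. The 11 cycling markers, led by Mki67, summed to 951, 767 and 424 CPM in the vehicle and 355, 423 and 126 CPM in the treated cultures, and 10 of the 11 were called lower with the block, among them Mcm3, Mcm6, Cdk1, Top2a, Ccnb1 and Mcm4. The 8 fibroblast markers, led by Fn1, summed to 3742, 3865 and 2176 CPM in the vehicle and 2419, 2614 and 1058 CPM in the treated cultures, with 5 called lower with the block (Col3a1, Fn1, Col1a1, Postn and Col1a2). The other fibroblast markers, Dcn, Lum and Pdgfra, changed less, with blocked log2 fold changes of -0.092, -0.31 and -0.25. The sums of both lists were lower after treatment in each pair, unlike the ribosomal proteins. The part of cycling cells and fibroblasts in the ribosomal protein levels was not tested.

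The 11 macrophage markers, led by Lyz2, summed to 73.4 to 118 CPM, highest in the number 2 culture of each group, and C1qb, C1qa and Cd163 were called lower with the block. The 6 endothelial markers, led by Cdh5, summed to 235 to 284 CPM with 0 called. The 6 mural markers, led by Rgs5, summed to 298 to 570.5 CPM, with Acta2 called lower and Abcc9 higher with the block. None of these markers was at 0 in all cultures. The 5 erythroid markers, led by Alas2, summed to 0.108 to 1.09 CPM and were not tested, being too sparse for the filter. No gene of any marker list was called without the block.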

How the data were processed

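Total RNA depleted of ribosomal RNA was sequenced from 6 cultures, grouped by the labels. The authors deposited raw counts per gene, not normalized. Their notes name HISAT2, mm10 and featureCounts of the Subread package, while the headers of the tables name STAR. The strand setting is not given in the sources used here.

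Counts were compared in edgeR 4.0.16 (R 4.3.3) with glmQLFit and glmQLFTest after filterByExpr and TMM scaling. A second fit had the replicate number as a block. Over the tested genes, deviations of same-numbered cultures correlated at 0.631, 0.536 and 0.774 across genes, which are not independent replicates, against -0.613 to 0.148 where the numbers differ. Deviations cancel out within a group for each gene, so positive values for the same numbers lower the others on average by construction. The limit for treating the numbers as pairs was 0.1 for the same numbers. Over the 84 members the values were 0.157, 0.0140 and 0.486, of which 0.0140 is under that limit, against -0.458 to 0.254 where the numbers differ. The labels do not say that numbers mark batches. Log2 CPM used a prior count of 2. Alternatives used DESeq2 1.42.0, limma 3.58.1 and sva 3.50.0 (ComBat-seq). The fits were tested on simulated data. No library was a duplicate, since chi-square per degree of freedom was 13.5 to 94.7 over the 15 pairs of libraries. The labels do not say whether cultures came from separate animals, so p-values measure the spread between these cultures. Coding lengths were those of the principal transcript in GENCODE M21, with GC content of the same transcript.

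Genes named in the text were the 5 highest and 3 lowest levels per kilobase in each subunit, the 5 largest differences in each direction with the block, paralogs and parents, the 3 largest and 3 smallest replicate SDs, and Rpsa, Rplp0, Rplp1, Rplp2, Rps6, Rpl5 and Rpl11. For each list they were its most abundant gene and up to 6 called genes. The members and lists were chosen with earlier results of these data known.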

Additional observations from a re-analysis of the deposited data

How the results depend on the processing

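Member calls stayed at 0 in both directions in all settings with the fold threshold: other scalings (RLE, upper-quartile and raw library sizes, and RLE and raw library sizes with the replicate block), other count filters, DESeq2, limma-voom, ComBat-seq with limma, each culture left out and each pair left out of the blocked fit. Without a fold threshold, the fit with the replicate block gave 2 members higher (Rpl13a and Rplp2) and 0 lower, and the fit without the block 0. The blocked fit with RLE scaling and DESeq2 with the block gave 1 (Rpl13a, without Rplp2), the blocked fit with raw library sizes 2 and ComBat-seq with limma 4, all higher, where 7.35%, 6.6%, 7.94% and 19.7% of all tested genes were higher. With the fold threshold, calls over all tested genes in edgeR numbered 0 without the block and 607 higher and 984 lower with it. DESeq2 gave 173 higher and 170 lower without the block and 360 and 851 with it. ComBat-seq with limma gave 1012 and 1115.

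The median log2 fold change of the members, 0.030, was 0.018 with the replicate block and 0.014 to 0.058 under the other settings. It ran from -0.12 to 0.13 with a culture or pair left out, from -0.12 to 0.11 for the large and -0.10 to 0.16 for the small subunit, so its sign turned with single cultures. With single cultures left out, the log2 fold change of Rps14 was -0.019 without vehicle culture 1 and up to 0.34 without vehicle culture 2, and that of Rpl7l1 -0.35 without vehicle culture 1 and 0.015 without vehicle culture 3. In the blocked fit, Rps14 was at -0.065 without pair 1 and 0.48 without pair 3, and Rpl13 at -0.019 and 0.35. The cause was not tested. Rpl13a kept its sign in all settings, at 0.15 to 0.42. The median replicate SD of the members was 0.219 with a prior count of 0.5 and 0.239 with raw library sizes. Without structural RNAs the summed share was 1.18% to 1.71%. On the TMM scale it was 1.23%, 1.47% and 1.35% in vehicle cultures 1, 2 and 3 and 1.31%, 1.64% and 1.20% in the HC-HA/PTX3 cultures, lowest in HC-HA/PTX3 culture 3 and not in vehicle culture 1. The structural RNAs, led by Malat1, took 2.40% ± 0.0982 of counts with vehicle and 2.84% ± 0.182 with HC-HA/PTX3 (SD, n = 3 each). Their share was higher after treatment in each pair, at 1.10, 1.17 and 1.30 times the vehicle culture. Depth limits the sparse Rpl39l and Rpl32l, whose counting errors were 0.465 and 0.268. Each culture left out unbalances its pair.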

Other observations

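Copies of ribosomal protein genes outside the 84 members were sparse. Rpl37rt, a retrocopy of Rpl37, had 34, 40 and 26 counts in vehicle cultures 1, 2 and 3 and 51, 59 and 45 counts in the HC-HA/PTX3 cultures, and was called higher with the block (log2 fold change 0.89, SE 0.25, adjusted p = 0.0315 in edgeR, higher in 3 of 3 pairs) but not without it (0.87, adjusted p = 0.385). Rps27rt, a retrocopy of Rps27, had 19, 17 and 16 counts with vehicle and 16, 31 and 15 with HC-HA/PTX3 and was not called. The 12 pseudogenes marked -ps summed to 5.21 to 7.99 CPM, with 7 tested and 0 called, and Rpl14-ps1 was the most abundant. Reads of such copies cannot be told apart from those of the parents where the sequences match.

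Among 18 regulators of ribosomal proteins and their partners, led by Larp1, 1 was called higher with the block, as 3.32% of all tested genes were. Mdm2, which Rpl5 and Rpl11 can bind, was at 84.4, 111 and 120.4 CPM with vehicle and 129.5, 139 and 207 CPM with HC-HA/PTX3. All treated cultures lay above all vehicle cultures, and the log2 fold change in edgeR was 0.58 with the block (SE 0.083, adjusted p = 0.00176, higher in 3 of 3 pairs) and 0.59 without it (adjusted p = 0.375). Mrps2 and Mrps18c, small subunit proteins of the mitochondrial ribosome, were called lower with the block, as 5.38% of all tested genes were, at -0.63 and -0.66 (SE 0.11 and 0.15, adjusted p = 0.00344 and 0.0118 in edgeR, lower in 3 of 3 pairs each), but not without it (-0.63 and -0.64, adjusted p = 0.268 and 0.324). Mrps2 was at 25.8, 24.9 and 32.6 CPM with vehicle and 15.2, 19.7 and 18.9 CPM with HC-HA/PTX3. Fau, which encodes a small subunit protein joined to a ubiquitin-like part, had a log2 fold change of 0.24 with the block (SE 0.069, adjusted p = 0.0385 in edgeR, higher in 3 of 3 pairs) and 0.24 without it (adjusted p = 0.555), under the fold threshold in both.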
